A study of Homo sapiens with 20 samples.

Results

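The comparison described here set OPM2 cells treated with panobinostat for 20 h against OPM2 cells given the vehicle DMSO, across every expressed gene. It compared 4 of the 20 libraries of the series, namely the columns of the deposited count table that carry the names of these groups. Of its 78932 gene identifiers, the 20957 with enough counts were tested. All 20 libraries entered the gene filter, the scaling and the shared estimate of spread. The others held panobinostat at other times, romidepsin and a further inhibitor, ricolinostat. OPM2 is a human multiple myeloma cell line, labelled by its submitters as a bone marrow multiple myeloma cell, so every library comes from 1 line in culture and not from patients. Panobinostat-treated cells received 10 nM panobinostat for 20 h, in 2 libraries. The same line treated with 10 nM romidepsin for 20 h, or with 10 nM panobinostat for 5 h, gave 2 libraries each and served as further references, and the vehicle group, given DMSO with no harvest time in the labels, gave 2. The series' design text calls the replicates independent biological replicates. Because no time is given for DMSO, time in culture and inhibitor cannot be told apart in the main comparison, and the labels give the batch as unknown.

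Histone deacetylases remove acetyl groups from the tails of histones and from many other proteins, and inhibitors let acetylation build up on chromatin. Panobinostat, a hydroxamic acid that blocks zinc-dependent deacetylases broadly, has been used in the clinic against multiple myeloma. Romidepsin is a cyclic peptide prodrug that acts mainly on class I enzymes. Myeloma cells are malignant plasma cells, which live by secreting immunoglobulin and depend on a small set of lineage transcription factors. Acetylated histones are bound by bromodomain proteins, which are normally gathered at enhancers of highly transcribed genes.

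Libraries of poly(A) RNA held 21983409 and 29088868 counts in panobinostat-treated cells, against 25313510 and 28656570 in DMSO-treated cells, and the 20 libraries of the series ran between 17264640 and 29088868. Levels below are CPM, counts scaled to a common library size with the trimmed mean of M values. A gene was called where the adjusted p of edgeR's quasi-likelihood test was under 0.05. Of the 12 plasma cell and myeloma markers looked at, all had counts in DMSO-treated cells, and their summed level was 841.3 and 864.1 CPM in panobinostat-treated cells, against 7600.6 and 7500.1 CPM in DMSO-treated cells. Markers of other cell types were also counted. The 6 erythroid markers summed to 619 and 969 counts with panobinostat, against 452 and 494 with DMSO. The 9 T and NK cell markers summed to 47 and 59 counts in the panobinostat libraries, against 7 and 4 in the DMSO libraries. The 9 myeloid markers summed to 196 and 262 counts, against 13 and 20 in DMSO, with S100A8 and S100A9 at 0 in all 4 libraries. The 8 early B cell markers summed to 511 and 605 counts with panobinostat, against 15 and 11 with DMSO, with MS4A1 and RAG2 at 0 throughout. Stromal markers, 7 in number, summed to 949 and 1176 counts with panobinostat, against 0 and 2 with DMSO, nearly all of it COL1A1, while COL3A1 and LUM were at 0. The 6 epithelial markers summed to 50 and 42 counts with panobinostat, against 10 and 6 with DMSO, with CDH1 and KRT19 at 0.

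In panobinostat-treated cells 8560 genes were higher and 6769 lower than in DMSO-treated cells, 40.8% and 32.3% of the genes tested. At least 2-fold changes were called for 6183 genes that were higher (29.5%) and 3739 that were lower (17.8%). Any count of a gene group below is to be read against these shares, since most genes were called. With library size alone as the scale, 65.9% of the calls were higher rather than 55.8%, and the median of all genes moved to 0.56 from 0.25 on the log2 scale. Group medians, where given, are therefore to be read beside that median of 0.25. Groups whose direction depends on the scale are named as such. The gene groups were chosen with earlier results of these data known, and their counts are a description with no test of the group.

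Among genes that averaged 100 CPM or more over all 20 libraries, 25.2% were higher and 67.5% lower with panobinostat. Among genes that averaged under 1 CPM, 45.0% were higher and 8.04% lower. Genes this low pass the filter through the libraries where they are high, so their share of rises is partly set by the filter. Genes at least 2-fold higher took 18.1% and 18% of all CPM in the panobinostat libraries, against 4.05% and 4.09% in the DMSO libraries. Genes at least 2-fold lower took 11.8% and 11.9% with panobinostat, against 34.3% and 34.4% with DMSO. The number of genes at 1 CPM or more was 14777 and 14722 in panobinostat-treated cells, against 12916 and 12890 in DMSO-treated cells. Genes at 100 CPM or more numbered 2061 and 2122 with panobinostat, against 2610 and 2633 with DMSO. These counts rest on scaling factors of 1.16 and 1.15 for the panobinostat libraries, against 0.934 and 0.937 for the DMSO libraries. The 10 most abundant genes took 7.09% and 6.75% of counts with panobinostat, against 5.36% and 5.16% with DMSO. In bulk RNA, a gene read in fewer cells and a lower level in each cell cannot be told apart. Mitochondrially encoded RNA made up 6.60% and 6.08% of counts in the panobinostat libraries, against 4.69% and 4.41% in the DMSO libraries.

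**Figure D1:**
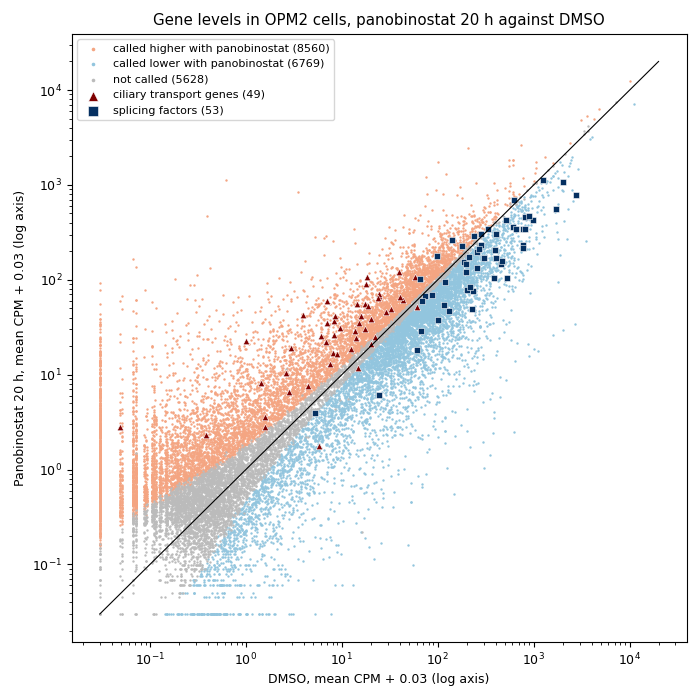
Mean level of each tested gene in panobinostat-treated cells (y axis) against DMSO-treated cells (x axis), both in CPM plus 0.03 on log axes, with 20957 points coloured by call and the line of equality drawn. Ciliary transport genes lie above the line (45 of 49 called higher) and splicing factors below it (44 of 53 called lower).

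A set of genes was read with panobinostat and not with DMSO. Of the genes tested, 1137 had 0 counts in both DMSO libraries, and 387 of these reached 1 CPM or more in both panobinostat libraries, 175 of them protein-coding. At 5 CPM or more in both there were 106, of which 45 were protein-coding. In the other direction 117 genes had 0 counts in both panobinostat libraries, and 15 of these had 1 CPM or more in both DMSO libraries. Folds for such genes are lower bounds, set against a floor of 3 counts over the 2 libraries of the silent group. NCKAP5L, a protein of microtubule bundling, had 38.1 and 39.7 CPM with panobinostat and 0 and 0 CPM with DMSO, at least 655-fold higher. RFPL4A, a member of the ret finger protein-like family known from oocytes and early embryos, had 37.2 and 40.2 CPM in panobinostat-treated cells, against 0 and 0 CPM in DMSO-treated cells, at least 654-fold higher. In these genes the lowest panobinostat library lay far above DMSO, where no read was found. The rule that picked them required libraries without overlap. CEACAM20 was at least 506-fold higher, NDST4, a heparan sulfate sulfotransferase, at least 299-fold and TMEM52 at least 298-fold. RPL3L, the muscle form of a large ribosomal subunit protein, was read in DMSO by 2 counts. It had 60.9 and 61.4 CPM with panobinostat and 0.0847 and 0 CPM with DMSO, a ratio of 1540 (95% counting interval 427 to 12700).

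The deepest falls left genes almost unread. WDR72, a protein with repeated WD domains known from tooth enamel formation, had 0.430 and 0.601 CPM in panobinostat-treated cells, against 145 and 149 CPM in DMSO-treated cells (log2 fold change -8.11 ± 0.12). CTHRC1, a secreted glycoprotein with a collagen triple helix repeat, had 1.02 and 1.74 CPM with panobinostat and 349.8 and 355 CPM with DMSO (-7.94 ± 0.11). FCMR, the receptor for the Fc part of IgM, had 0 and 0.0601 CPM in the panobinostat libraries and 8.22 and 8.50 CPM in the DMSO libraries, 246-fold lower (95% counting interval 67.7 to 2040). AMPD1, an AMP deaminase, had 0.548 and 0.301 CPM in panobinostat-treated cells, against 51.4 and 53.2 CPM in DMSO-treated cells (-6.98 ± 0.16). CCR1, a receptor for inflammatory chemokines, had 2.11 and 1.68 CPM with panobinostat and 301 and 287 CPM with DMSO (-7.29 ± 0.08). The libraries of the groups did not overlap in these genes, but the rule that picked them required this. Measured in CPM rather than in fold, the losses were carried by other genes. EEF1A1, the elongation factor that brings aminoacyl-tRNA to the ribosome, had 6914 and 7204 CPM in panobinostat-treated cells, against 11017 and 11076 CPM in DMSO-treated cells (-0.65 ± 0.03). ZBTB38, a zinc finger protein that binds methylated DNA, had 25.1 and 27.1 CPM with panobinostat and 1574 and 1569.6 CPM with DMSO (-5.91 ± 0.06). HDGF, a nuclear chromatin-binding growth factor, had 95.6 and 94.6 CPM in the panobinostat libraries and 1815 and 1799.8 CPM in the DMSO libraries (-4.25 ± 0.04). AHNAK, a giant scaffold protein, had 278 and 262 CPM with panobinostat and 2125 and 2300.0 CPM with DMSO (-3.04 ± 0.13). Gains in CPM that were also large in fold included that of INSIG1, the endoplasmic reticulum protein that holds back sterol regulatory element-binding proteins, at 2452 and 2427 CPM in panobinostat-treated cells, against 199 and 217 CPM in DMSO-treated cells (3.55 ± 0.04). SREBF1, the gene of one of those proteins, had 1853 and 1819.8 CPM with panobinostat and 544 and 549 CPM with DMSO (1.75 ± 0.04). FLNA, which crosslinks actin filaments, had 2559 and 2652 CPM in the panobinostat libraries and 725 and 743 CPM in the DMSO libraries (1.83 ± 0.04). ODC1, the rate-limiting enzyme of polyamine synthesis, had 1771 and 1889.9 CPM in panobinostat-treated cells, against 610.2 and 606 CPM in DMSO-treated cells (1.59 ± 0.04). RHOB, a small GTPase of endosomes and actin, had 1284 and 1339 CPM with panobinostat and 123 and 118 CPM with DMSO (3.44 ± 0.04).

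**Figure D2:**
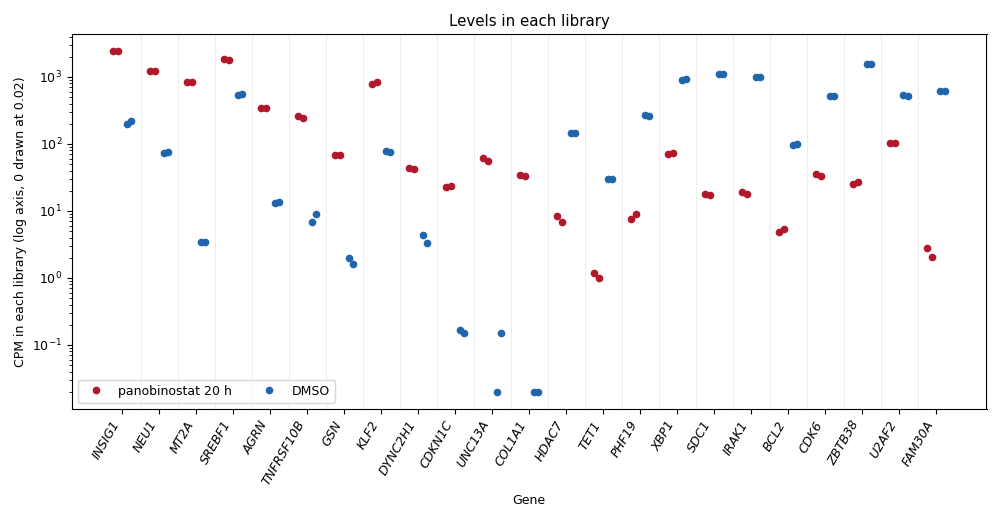
Level of 23 genes in each library in CPM on a log axis (values of 0 drawn at 0.02 CPM), with panobinostat 20 h left of DMSO for each gene and 2 points for each group. The points of the 2 groups do not overlap for any gene shown.

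Promoter sequences are shown for 5 genes whose groups carry results below, taken from the RefSeq table for GRCh38.p14 and running from 250 bases before to 50 bases after the gene's start, on the strand of the gene. Capitals mark matches, on either strand, to 1 short motif for each gene. DYNC2H1 and IFT88 carry the RFX motif GTTGCC, MT2A the metal response core TGCNCNC, LONP1 the E-box CACGTG and H2BC21 the CCAAT box. The first pair stands for the ciliary transport genes, LONP1 for the mitochondrial proteins that fell, and H2BC21 for the polyadenylated histones that rose.
DYNC2H1, chr11:103109176-103109475, plus strand: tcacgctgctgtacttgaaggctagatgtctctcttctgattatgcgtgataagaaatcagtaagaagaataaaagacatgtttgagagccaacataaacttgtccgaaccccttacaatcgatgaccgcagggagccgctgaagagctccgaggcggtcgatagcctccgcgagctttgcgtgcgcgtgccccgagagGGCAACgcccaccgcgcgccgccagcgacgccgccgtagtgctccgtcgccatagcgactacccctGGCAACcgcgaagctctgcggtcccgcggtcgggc
IFT88, chr13:20566907-20567206, plus strand: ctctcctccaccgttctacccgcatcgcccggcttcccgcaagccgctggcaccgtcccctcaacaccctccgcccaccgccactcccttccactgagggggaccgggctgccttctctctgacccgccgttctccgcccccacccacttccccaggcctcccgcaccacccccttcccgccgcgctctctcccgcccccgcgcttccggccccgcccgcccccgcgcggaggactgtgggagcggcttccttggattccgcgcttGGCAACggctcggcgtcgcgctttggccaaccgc
MT2A, chr16:56608334-56608633, plus strand: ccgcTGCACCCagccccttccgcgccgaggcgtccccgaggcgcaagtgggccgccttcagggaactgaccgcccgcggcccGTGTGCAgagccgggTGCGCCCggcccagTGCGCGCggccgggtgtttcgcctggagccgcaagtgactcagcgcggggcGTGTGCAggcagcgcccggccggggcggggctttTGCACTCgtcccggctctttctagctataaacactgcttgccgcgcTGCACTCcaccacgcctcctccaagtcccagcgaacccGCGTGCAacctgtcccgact
LONP1, chr19:5720097-5720396, minus strand: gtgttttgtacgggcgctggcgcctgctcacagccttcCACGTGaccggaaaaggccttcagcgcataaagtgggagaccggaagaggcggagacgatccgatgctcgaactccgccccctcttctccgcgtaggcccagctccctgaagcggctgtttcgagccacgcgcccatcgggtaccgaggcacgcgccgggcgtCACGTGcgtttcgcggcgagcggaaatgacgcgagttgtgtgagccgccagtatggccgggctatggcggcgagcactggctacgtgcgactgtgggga
H2BC21, chr1:149886633-149886932, minus strand: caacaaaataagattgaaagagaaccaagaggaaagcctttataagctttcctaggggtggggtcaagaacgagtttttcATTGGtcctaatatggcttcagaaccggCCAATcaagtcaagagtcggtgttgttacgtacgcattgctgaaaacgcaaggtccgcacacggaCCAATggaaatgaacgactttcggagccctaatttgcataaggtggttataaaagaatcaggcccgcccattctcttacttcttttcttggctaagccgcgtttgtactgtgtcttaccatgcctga

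Chromatin genes moved in both directions. Of 18 deacetylase and sirtuin genes, 11 rose and 5 fell (median 0.34, beside 0.25 for all genes). HDAC7, a class IIa deacetylase, had 8.30 and 6.85 CPM in panobinostat-treated cells, against 146 and 144 CPM in DMSO-treated cells (-4.27 ± 0.07, adjusted p = 3.5e-74). HDAC9, of the same class, had 5.91 and 7.13 CPM with panobinostat and 41.6 and 47.2 CPM with DMSO (-2.76 ± 0.09). Both fell in every library, with no overlap. SIRT4, a mitochondrial sirtuin, had 8.26 and 10.4 CPM in the panobinostat libraries and 1.02 and 0.783 CPM in the DMSO libraries (3.38 ± 0.26). SIRT7, a nucleolar one, had 156 and 147 CPM in panobinostat-treated cells, against 50.5 and 53.1 CPM in DMSO-treated cells (1.55 ± 0.06). HDAC11, the single class IV enzyme, had 12.5 and 9.95 CPM with panobinostat and 3.73 and 2.80 CPM with DMSO (1.78 ± 0.18). HDAC10 and SIRT5 were not called. Among 33 subunits of the complexes that carry deacetylases 14 rose and 18 fell. CHD3, a helicase of the NuRD complex, had 14.4 and 14 CPM in the panobinostat libraries and 202 and 187 CPM in the DMSO libraries (-3.77 ± 0.06). MTA3, another NuRD subunit, had 2.19 and 2.68 CPM in panobinostat-treated cells, against 22.4 and 21.8 CPM in DMSO-treated cells (-3.16 ± 0.14). TBL1X and TBL1XR1, which are paralogous subunits of the NCOR complexes, had 25.4 and 26 CPM with panobinostat and 142 and 149.5 CPM with DMSO (-2.50 ± 0.06) and 25.2 and 25.9 CPM in the panobinostat libraries and 171 and 185 CPM in the DMSO libraries (-2.80 ± 0.06). RCOR2, a corepressor of the LSD1 complex, went the other way, at 5.71 and 6.25 CPM in panobinostat-treated cells, against 0.339 and 0.335 CPM in DMSO-treated cells (4.13 ± 0.40).

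On the side of acetylation, 13 of 21 acetyltransferase genes fell and 4 rose, with 9 lower and 8 higher when library size alone set the scale. KAT2B, a histone acetyltransferase also called PCAF, had 10.5 and 12.1 CPM with panobinostat and 48.6 and 47.6 CPM with DMSO (-2.08 ± 0.08). NCOA2, a nuclear receptor coactivator, had 28.8 and 30.3 CPM in the panobinostat libraries and 166 and 164 CPM in the DMSO libraries (-2.48 ± 0.06). KAT6A, ATF2, ESCO1 and NAA10 were not called. Of 26 genes of acetyl-lysine readers and of the P-TEFb elongation kinase with its inhibitory ribonucleoprotein, 7 rose and 15 fell, 11 and 13 with library size alone. HEXIM1, which holds P-TEFb inactive, had 30.4 and 29 CPM in panobinostat-treated cells, against 5.25 and 4.06 CPM in DMSO-treated cells (2.68 ± 0.14), while MEPCE, the capping enzyme of the RNA in that complex, had 8.49 and 8.63 CPM with panobinostat and 32.1 and 33.4 CPM with DMSO (-1.93 ± 0.12). BRD1, a scaffold of acetyltransferase complexes, had 15.1 and 15.9 CPM in the panobinostat libraries and 120.1 and 112 CPM in the DMSO libraries (-2.90 ± 0.07). BRD2, BRD3, BRD8 and HEXIM2 were not called.

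Genes of DNA methylation, not all of them enzymes, fell together: 14 of 15 were lower, none was higher and DNMT3B was not called (median -0.94). With library size alone 13 were lower and 1 higher. TET1 had 1.17 and 0.992 CPM in panobinostat-treated cells, against 30.1 and 30.3 CPM in DMSO-treated cells (-4.81 ± 0.15, adjusted p = 4.3e-51) and TET3 had 4.54 and 4.87 CPM with panobinostat and 74.3 and 71.6 CPM with DMSO (-3.95 ± 0.10), both of them dioxygenases that oxidise methylcytosine. TET2, the other member of that family, had 10.0 and 11.1 CPM in the panobinostat libraries and 50.6 and 48.1 CPM in the DMSO libraries (-2.22 ± 0.09). DNMT3A, a de novo methyltransferase, had 3.91 and 3.76 CPM in panobinostat-treated cells, against 24.1 and 25.8 CPM in DMSO-treated cells (-2.71 ± 0.13). ZBTB33, a reader of methylated DNA, had 25.8 and 28 CPM with panobinostat and 111 and 117 CPM with DMSO (-2.08 ± 0.06). All 5 had panobinostat libraries below both DMSO libraries. Of 28 Polycomb genes 9 rose and 14 fell, and the sign of their median turned with library size alone (0.12 against -0.18). PHF19, which brings Polycomb repressive complex PRC2 to methylated histone H3, had 7.47 and 8.87 CPM in the panobinostat libraries and 268 and 259 CPM in the DMSO libraries (-5.00 ± 0.07). BMI1, of the other Polycomb complex, had 164 and 167 CPM in panobinostat-treated cells, against 687 and 694 CPM in DMSO-treated cells (-2.06 ± 0.04). Histone genes whose transcripts were captured as poly(A) RNA behaved otherwise: 15 of 23 tested rose and 6 fell, among 27 listed (median 1.21). H2BC21 had 40.0 and 45 CPM with panobinostat and 7.07 and 7.53 CPM with DMSO (2.54 ± 0.11). H1-2 had 55.8 and 60.3 CPM in the panobinostat libraries and 11.6 and 9.32 CPM in the DMSO libraries (2.48 ± 0.09) and H1-4 had 9.39 and 8.93 CPM in panobinostat-treated cells, against 0.635 and 0.298 CPM in DMSO-treated cells (4.31 ± 0.31), all replication-type histones of the nucleosome core or its linker. H2AC20 and H2BC4 were not called. Of the promoters of 20 histone genes in the table, 16 (80.0%) held CCAAT and 13 (65.0%) held TATAAA on either strand, beside 37.0% and 6.29% of the 11031 promoters of tested protein-coding genes. H2BC21 holds CCAAT at 3 places.

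The G1 machinery fell for the most part, with 18 of 28 genes lower and 5 higher (16 and 9 with library size alone). CDK6, the cyclin D-dependent kinase, had 35.4 and 33 CPM in panobinostat-treated cells, against 513 and 525 CPM in DMSO-treated cells (-3.93 ± 0.05). E2F2, an activator of S-phase genes, had 46.3 and 51.3 CPM with panobinostat and 326 and 332 CPM with DMSO (-2.75 ± 0.05). E2F3 had 17.6 and 17.8 CPM in the panobinostat libraries and 85.9 and 88.1 CPM in the DMSO libraries (-2.30 ± 0.07). CCND1, CCNE2, CCNH, E2F4 and TFDP2 were not called. Inhibitors of the cyclin-dependent kinases divided: 5 of 7 tested rose and 2 fell. CDKN1C, which encodes p57, had 22.5 and 23.4 CPM in panobinostat-treated cells, against 0.169 and 0.149 CPM in DMSO-treated cells (7.13 ± 0.34). CDKN2D, which encodes p19, had 57.7 and 57.7 CPM with panobinostat and 8.30 and 7.94 CPM with DMSO (2.83 ± 0.11). CDKN2B, which encodes p15, had 44.8 and 46.5 CPM in the panobinostat libraries and 6.82 and 6.19 CPM in the DMSO libraries (2.82 ± 0.10). The 2 that fell were CDKN1B, the gene of p27, at 29.1 and 32.9 CPM in panobinostat-treated cells, against 224 and 223 CPM in DMSO-treated cells (-2.85 ± 0.06), and CDKN2A, at 10.2 and 10.2 CPM with panobinostat and 134 and 130.4 CPM with DMSO (-3.69 ± 0.07). CDKN2A and CDKN2B are neighbours on chromosome 9 and moved in opposite directions. Among genes of homologous recombination and the Fanconi pathway 13 of 35 rose and 17 fell, 17 and 15 with library size alone, so no direction is given for them. RAD51D, a protein of homologous recombination, had 15.5 and 12 CPM in the panobinostat libraries and 87.4 and 91.9 CPM in the DMSO libraries (-2.73 ± 0.07). RBBP8, which starts end resection, had 47.9 and 50.6 CPM in panobinostat-treated cells, against 169 and 175 CPM in DMSO-treated cells (-1.80 ± 0.05). Of 38 genes of mismatch, excision and end-joining repair 9 rose and 23 fell (14 and 17 with library size alone). LIG3, a DNA ligase of base excision repair and mitochondria, had 24.2 and 24.8 CPM with panobinostat and 265 and 271 CPM with DMSO (-3.45 ± 0.06). UNG, the uracil glycosylase, had 31.6 and 35.5 CPM in the panobinostat libraries and 136 and 144 CPM in the DMSO libraries (-2.06 ± 0.06). POLB, the repair polymerase of the same pathway, was higher, at 47.6 and 49.6 CPM in panobinostat-treated cells, against 19.1 and 21.9 CPM in DMSO-treated cells (1.24 ± 0.08).

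The machinery that makes RNA and protein was mostly lower. Abundant genes were often lower in general, and the groups were not matched on level. Among all genes at 100 CPM or more over all libraries, 67.5% were lower (median -0.49). At 10 to 100 CPM the share was 51.0% (median -0.20). Groups of such genes, here and below, are to be read beside these shares as well. Of 53 splicing factors 44 fell and 7 rose (median -0.92; 33 and 11 with library size alone). SF3B4 and U2AF1 were not called. U2AF2, which binds the polypyrimidine tract before an exon, had 103 and 105 CPM in panobinostat-treated cells, against 536 and 527 CPM in DMSO-treated cells (-2.35 ± 0.04, adjusted p = 3.0e-73). HNRNPK and HNRNPF, RNA-binding proteins that steer splice site choice, had 211 and 220.5 CPM with panobinostat and 783 and 774 CPM with DMSO (-1.85 ± 0.04) and 101 and 109 CPM in the panobinostat libraries and 388 and 376 CPM in the DMSO libraries (-1.86 ± 0.04). HNRNPA2B1, among the most abundant of the class, had 783 and 772 CPM in panobinostat-treated cells, against 2766 and 2685 CPM in DMSO-treated cells (-1.81 ± 0.03). In each case both panobinostat libraries lay under both DMSO libraries. RNA polymerase II, Mediator and general factor genes showed no common direction, with 22 of 50 higher and 19 lower (median 0.05; 29 and 9 with library size alone). Of 35 genes of RNA polymerases I and III and their factors 22 fell and 9 rose. UBTF, the factor that organises ribosomal DNA for polymerase I, had 24.4 and 23.9 CPM with panobinostat and 438 and 423 CPM with DMSO (-4.16 ± 0.06). GTF3A, the zinc finger factor needed for 5S RNA genes, had 30.6 and 32.3 CPM in the panobinostat libraries and 126 and 125 CPM in the DMSO libraries (-1.99 ± 0.06).

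Ribosomal protein genes changed little but in 1 direction at the main scale: 65 of 76 cytosolic ones were lower and 3 higher, with a median of -0.35. With library size alone 33 were lower and 22 higher, and the median came to -0.05. RPL27A had 667 and 688 CPM in panobinostat-treated cells, against 1139.7 and 1123 CPM in DMSO-treated cells (-0.74 ± 0.04). Many ribosomal protein genes have processed pseudogenes, so reads of this family may be divided among copies. Of 76 mitochondrial ribosomal proteins 60 fell and 7 rose (median -0.70; 49 and 12 with library size alone). MRPL15 had 26 and 25.1 CPM in the panobinostat libraries and 110.0 and 109.8 CPM in the DMSO libraries (-2.11 ± 0.06). MRPL34 had 16 and 19.6 CPM in panobinostat-treated cells, against 88.8 and 87.3 CPM in DMSO-treated cells (-2.29 ± 0.08). Translation factors fell in 32 cases of 49 and rose in 12. EIF4G2, an initiation factor that works without the cap-binding protein, was far lower, at 180.0 and 184 CPM with panobinostat and 1861 and 1861 CPM with DMSO (-3.35 ± 0.04, adjusted p = 9.1e-91). EEF2, the translocase of elongation, was higher, at 5193 and 5454 CPM in the panobinostat libraries and 3590.1 and 3530.0 CPM in the DMSO libraries (0.58 ± 0.03), although EEF1A1 was lower. EEF1A2, the muscle and neuron form of the EEF1A1 protein, had 14.3 and 14.2 CPM in panobinostat-treated cells, against 1.95 and 3.13 CPM in DMSO-treated cells (2.47 ± 0.19). Among aminoacyl-tRNA synthetases 27 of 39 fell and 8 rose; YARS1, for tyrosine, had 74.9 and 69.7 CPM with panobinostat and 348 and 354 CPM with DMSO (-2.28 ± 0.05). VARS1, for valine, had 142 and 144 CPM in the panobinostat libraries and 551 and 545 CPM in the DMSO libraries (-1.93 ± 0.04). QARS1, WARS1, HARS2 and VARS2 were not called.

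Mitochondrial import and its chaperones were nearly all lower: 35 of 38 fell, 2 rose and TIMM50 was not called (median -0.96; 27 and 5 with library size alone). TIMM13, a small chaperone of the intermembrane space, had 31.2 and 32.9 CPM in panobinostat-treated cells, against 142 and 141 CPM in DMSO-treated cells (-2.14 ± 0.06). HSPE1, the co-chaperonin of HSP60, had 12.9 and 11.4 CPM with panobinostat and 57.3 and 52.9 CPM with DMSO (-2.19 ± 0.09). CLPP, a protease of the matrix, had 24.2 and 27.4 CPM in the panobinostat libraries and 100.2 and 101 CPM in the DMSO libraries (-1.96 ± 0.06). LONP1, another, had 199.7 and 206 CPM in panobinostat-treated cells, against 398 and 404 CPM in DMSO-treated cells (-0.98 ± 0.04). CACGTG was found in 7 of 34 promoters of this group (20.6%), in 9.76% of the promoters of tested protein-coding genes and in 7.26% of all 35116 in the table. All 7 genes with a match fell, with a median of -1.41, and 24 of 27 without one fell, with a median of -0.92. Among all tested genes the motif stood in 11.9% of promoters of genes at least 2-fold lower, in 7.74% of those at least 2-fold higher and in 9.93% of the others. Of 58 genes of nuclear pores and transport 40 fell and 14 rose (median -0.64). RAN, the GTPase that gives transport its direction, had 243 and 248 CPM with panobinostat and 1139 and 1117 CPM with DMSO (-2.20 ± 0.04). RANBP1 had 62.9 and 61.8 CPM in the panobinostat libraries and 273 and 264 CPM in the DMSO libraries (-2.10 ± 0.05). NUP210, a membrane nucleoporin, had 96.8 and 106 CPM in panobinostat-treated cells, against 757 and 772 CPM in DMSO-treated cells (-2.91 ± 0.04). NXF1, the main export receptor of mRNA, rose, at 377 and 364 CPM with panobinostat and 83.8 and 87.8 CPM with DMSO (2.11 ± 0.05). Of 33 nucleotide synthesis genes 26 fell and 7 rose (median -1.16). CTPS1, the CTP synthase of proliferating lymphocytes, had 31.7 and 33.4 CPM in the panobinostat libraries and 209.8 and 219 CPM in the DMSO libraries (-2.72 ± 0.06). ADA, which deaminates adenosine, had 12.4 and 10.9 CPM in panobinostat-treated cells, against 106 and 105 CPM in DMSO-treated cells (-3.19 ± 0.07).

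**Figure D3:**
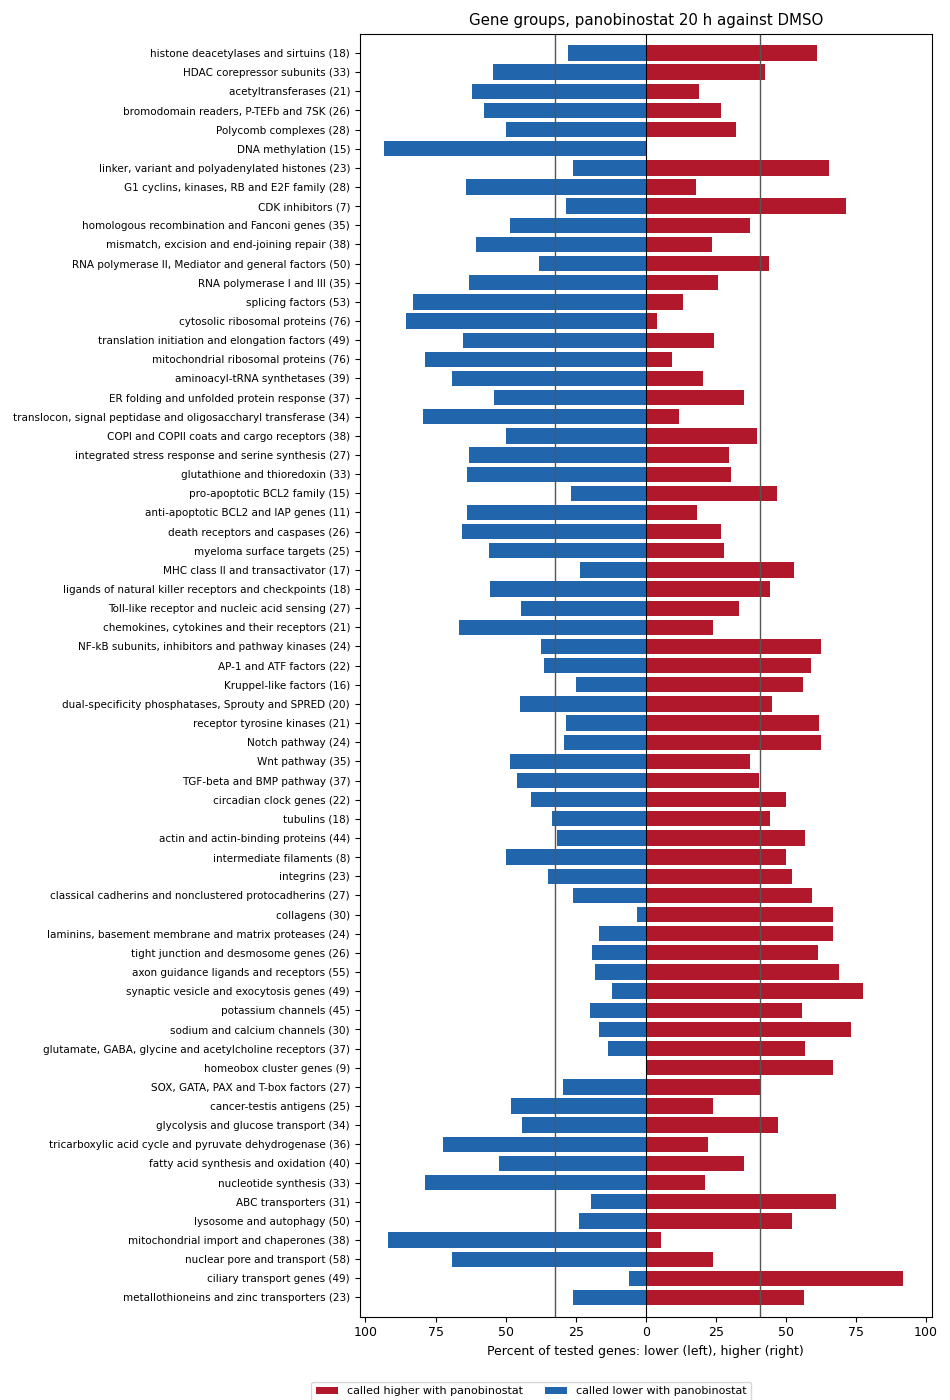
Share of the tested genes called higher (right) and lower (left) with panobinostat for 66 gene groups, in percent, with the number tested beside each name and grey lines at the shares for all genes, 40.8% and 32.3%. Mitochondrial import, DNA methylation and splicing reach far to the left, and ciliary transport genes, collagens and synaptic genes far to the right.

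The secretory pathway of the plasma cell changed unevenly. Of 37 genes of endoplasmic reticulum folding and the unfolded protein response 13 rose and 20 fell, with the sign of their median turned by library size alone (17 higher and 16 lower). XBP1, the transcription factor that drives secretory capacity in plasma cells, had 70.3 and 73.4 CPM in panobinostat-treated cells, against 910.2 and 928 CPM in DMSO-treated cells (-3.68 ± 0.04, adjusted p = 2.9e-90). TXNDC5, a disulfide isomerase abundant in plasma cells, had 18 and 17.9 CPM with panobinostat and 258 and 269.6 CPM with DMSO (-3.87 ± 0.06). EDEM3, which trims mannose from misfolded glycoproteins, had 188 and 183 CPM in the panobinostat libraries and 1083 and 1103 CPM in the DMSO libraries (-2.56 ± 0.04). ATF6 and ERN1, sensors of the unfolded protein response, were not called. ERO1B, an oxidase of disulfide formation, rose, at 13.5 and 12.8 CPM in panobinostat-treated cells, against 0.974 and 0.894 CPM in DMSO-treated cells (3.81 ± 0.26). Translocon, signal peptidase and oligosaccharyl transferase genes fell in 27 of 34 cases and rose in 4 (23 and 8 with library size alone). TRAM1, which helps chains enter the membrane, had 375 and 411 CPM with panobinostat and 1714 and 1696 CPM with DMSO (-2.12 ± 0.04). SEC61A1, the channel itself, had 244 and 247 CPM in the panobinostat libraries and 586 and 584 CPM in the DMSO libraries (-1.25 ± 0.04). JCHAIN, the joining chain of secreted IgM and IgA, had 414 and 427 CPM in panobinostat-treated cells, against 2106 and 2027 CPM in DMSO-treated cells (-2.30 ± 0.04). Of 38 genes of COPI and COPII vesicles 15 rose and 19 fell, 21 and 12 with library size alone. The sign of their median turned with the scale (0.12 with library size alone, -0.19 at the main scale).

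Surface proteins that are targets of myeloma therapy included deep falls. Of 28 listed, 25 were tested, 7 rose and 14 fell, 5 and 12 of them at least 2-fold. The called targets named next all fell. SDC1, the syndecan CD138 that marks plasma cells, had 18 and 17.6 CPM in panobinostat-treated cells, against 1111 and 1126 CPM in DMSO-treated cells (-5.98 ± 0.05, adjusted p = 3.0e-98). SLAMF7, the target of elotuzumab, had 5.40 and 7.28 CPM with panobinostat and 367 and 367 CPM with DMSO (-5.83 ± 0.08). CD38, the target of daratumumab, had 4.03 and 3.58 CPM in the panobinostat libraries and 11.6 and 11.2 CPM in the DMSO libraries (-1.59 ± 0.16). FCRL5, CD74, CD86 and CD200 were not called. Adhesion to the marrow is carried by integrins, of which 12 of 23 rose and 8 fell, 10 and 5 of them at least 2-fold (median 0.87). The integrins named next all fell. ITGA4, the alpha chain of VLA-4, had 17.9 and 15.9 CPM with panobinostat and 244 and 248 CPM with DMSO (-3.87 ± 0.06). ITGB7 had 98.5 and 102 CPM in the panobinostat libraries and 706 and 704 CPM in the DMSO libraries (-2.81 ± 0.04) and ITGB5 had 14.1 and 14.9 CPM in panobinostat-treated cells, against 293 and 298 CPM in DMSO-treated cells (-4.35 ± 0.06). Of 46 listed chemokines, cytokines and receptors 21 were tested, 5 rose and 14 fell. IL15, a cytokine of lymphocyte survival, had 12.3 and 10.7 CPM with panobinostat and 0.720 and 0.894 CPM with DMSO (3.81 ± 0.26), and its receptor chain IL15RA had 0.548 and 0.661 CPM in the panobinostat libraries and 16.6 and 15 CPM in the DMSO libraries (-4.68 ± 0.23), so ligand and receptor moved in opposite directions.

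Ligands of natural killer cells and checkpoints also divided, 8 of 18 higher and 10 lower. MICA and MICB, related stress ligands of the receptor NKG2D encoded close together, had 11.5 and 13.3 CPM in panobinostat-treated cells, against 1.27 and 1.01 CPM in DMSO-treated cells (3.45 ± 0.23) and 2.86 and 3.28 CPM with panobinostat and 33.3 and 37.5 CPM with DMSO (-3.52 ± 0.12). CLEC2B, a ligand of another natural killer receptor, had 0.939 and 0.722 CPM in the panobinostat libraries and 59.5 and 64 CPM in the DMSO libraries (-6.23 ± 0.15). MHC class II genes rose in 9 cases of 17 and fell in 4, at low levels: HLA-DPA1 had 7.47 and 7.55 CPM in panobinostat-treated cells, against 1.27 and 1.30 CPM in DMSO-treated cells (2.54 ± 0.26) and HLA-DRA had 29 and 27.8 CPM with panobinostat and 20.1 and 19.9 CPM with DMSO (0.50 ± 0.09). The sum over this list was lower with panobinostat, at 204.3 and 201.8 CPM, against 253.3 and 251.8 CPM with DMSO. CIITA, the transactivator of the class, and HLA-DRB1 were not called, while RFX5, which binds its promoters, fell (-0.65 ± 0.05). Among sensors of nucleic acids and Toll-like receptor genes 9 of 27 rose and 12 fell. With library size alone 12 rose and 11 fell, so the balance depends on the scale. IRAK1, the kinase that passes on Toll-like receptor signals, had 19.1 and 18 CPM in the panobinostat libraries and 995 and 1004 CPM in the DMSO libraries (-5.76 ± 0.05, adjusted p = 1.0e-100). CGAS and STING1, which sense cytosolic DNA, had 2.97 and 2.68 CPM in panobinostat-treated cells, against 27.2 and 27.7 CPM in DMSO-treated cells (-3.29 ± 0.13) and 3.87 and 3.97 CPM with panobinostat and 29.8 and 31.5 CPM with DMSO (-2.96 ± 0.11). NF-kB genes rose in 15 of 24 cases and fell in 9. NFKB2 had 165 and 172 CPM in the panobinostat libraries and 53.8 and 52 CPM in the DMSO libraries (1.67 ± 0.05) and NFKB1, the partner subunit gene of the canonical pathway, had 6.46 and 5.23 CPM in panobinostat-treated cells, against 69 and 71.3 CPM in DMSO-treated cells (-3.60 ± 0.09).

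Genes of cell death moved on both sides of the balance. Of 15 pro-apoptotic BCL2 family genes 7 rose and 4 fell, and BOK, BAD, HRK and BNIP3 were not called. BNIP3L, a mitophagy receptor of the family, had 96.7 and 92.6 CPM in panobinostat-treated cells, against 31.8 and 31.5 CPM in DMSO-treated cells (1.58 ± 0.07). BID, which links death receptors to mitochondria, had 2.70 and 1.89 CPM with panobinostat and 35.7 and 35.3 CPM with DMSO (-3.97 ± 0.14). Of 11 tested survival genes 7 fell and 2 rose. BCL2, the target of venetoclax, had 4.77 and 5.44 CPM in the panobinostat libraries and 95.9 and 101 CPM in the DMSO libraries (-4.26 ± 0.09, adjusted p = 3.2e-58). BCL2L1, the gene of BCL-XL, had 11.5 and 12.1 CPM in panobinostat-treated cells, against 24.6 and 29 CPM in DMSO-treated cells (-1.19 ± 0.11). BIRC3, an inhibitor of apoptosis protein, was higher, at 14.9 and 15.8 CPM with panobinostat and 1.69 and 1.64 CPM with DMSO (3.20 ± 0.20). Among death receptors and caspases 17 of 26 fell and 7 rose. TNFRSF10B, the TRAIL receptor DR5, had 261 and 247 CPM in the panobinostat libraries and 6.86 and 9.09 CPM in the DMSO libraries (4.98 ± 0.09, adjusted p = 1.1e-71). CFLAR, which blocks caspase-8 at such receptors, had 3.60 and 4.93 CPM in panobinostat-treated cells, against 45.2 and 45.8 CPM in DMSO-treated cells (-3.39 ± 0.10), while CASP6 had 11.8 and 11.1 CPM with panobinostat and 93.5 and 91.8 CPM with DMSO (-3.02 ± 0.07). RIPK1 had 2.82 and 4.27 CPM in the panobinostat libraries and 30.1 and 31.2 CPM in the DMSO libraries (-3.08 ± 0.13) and FAS had 1.02 and 0.722 CPM in panobinostat-treated cells, against 6.90 and 7.16 CPM in DMSO-treated cells (-3.04 ± 0.24). The 2 death receptors named here thus moved apart.

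Stress genes showed a split within the integrated stress response. DDIT3, the factor CHOP, had 53.9 and 52.1 CPM in panobinostat-treated cells, against 6.39 and 6.67 CPM in DMSO-treated cells (3.02 ± 0.11). ATF3 had 111 and 104 CPM with panobinostat and 10.6 and 9.69 CPM with DMSO (3.41 ± 0.09), while 17 of 27 genes of the list fell and 8 rose (median -1.03). The deepest falls were in amino acid and folate metabolism. SLC7A11, which imports cystine, had 3.13 and 3.64 CPM in the panobinostat libraries and 26.7 and 26.3 CPM in the DMSO libraries (-2.96 ± 0.14). ALDH1L2 had 24.5 and 25.3 CPM in panobinostat-treated cells, against 157 and 149 CPM in DMSO-treated cells (-2.62 ± 0.06) and MTHFD1L had 18.8 and 19.1 CPM with panobinostat and 109.6 and 114 CPM with DMSO (-2.56 ± 0.07), the last pair being mitochondrial folate enzymes. Glutathione and thioredoxin genes fell in 21 of 33 cases and rose in 10. TXN, thioredoxin, had 82.3 and 83.1 CPM in the panobinostat libraries and 289 and 302 CPM in the DMSO libraries (-1.84 ± 0.05). TXNRD2, the mitochondrial reductase, had 6.03 and 6.28 CPM in panobinostat-treated cells, against 55.4 and 55 CPM in DMSO-treated cells (-3.16 ± 0.09). TXNIP, which binds thioredoxin, had 731 and 737 CPM with panobinostat and 186 and 168 CPM with DMSO (2.05 ± 0.04). NQO1, a quinone reductase, had 5.67 and 5.50 CPM in the panobinostat libraries and 37.8 and 42.3 CPM in the DMSO libraries (-2.84 ± 0.11) and KEAP1, the adaptor that keeps its activator NRF2 low, had 35.8 and 36.6 CPM in panobinostat-treated cells, against 214 and 215 CPM in DMSO-treated cells (-2.56 ± 0.06). Metallothioneins are small proteins that bind zinc and copper. Of the 23 tested metallothionein and zinc transporter genes 13 rose and 6 fell (median 0.36). MT1X had 272 and 275 CPM with panobinostat and 6.56 and 6.45 CPM with DMSO (5.39 ± 0.08). MT2A had 845 and 836 CPM in the panobinostat libraries and 3.47 and 3.47 CPM in the DMSO libraries, and MT1G had 6.77 and 5.89 CPM in panobinostat-treated cells, against 0 and 0.0373 CPM in DMSO-treated cells, a ratio of 316 (95% counting interval 56.5 to 12500). The genes lie together on chromosome 16. The metal response core TGCNCNC occurs 8 times in the MT2A promoter shown, though 62.9% of promoters of tested protein-coding genes hold it at least once. SLC39A8, a zinc and manganese importer, fell, at 23.8 and 23.1 CPM with panobinostat and 166 and 169.5 CPM with DMSO (-2.84 ± 0.06).

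In metabolism, glycolysis had 16 of 34 genes higher and 15 lower. HK1, a hexokinase, had 104 and 107 CPM in panobinostat-treated cells, against 2.63 and 1.79 CPM in DMSO-treated cells (5.59 ± 0.12). ENO2, the neuronal enolase, had 6.42 and 5.29 CPM with panobinostat and 0.254 and 0.149 CPM with DMSO (4.84 ± 0.45). ENO1, the common enolase, had 677 and 683 CPM in the panobinostat libraries and 2617 and 2562 CPM in the DMSO libraries (-1.93 ± 0.04). SLC2A3, the neuronal glucose transporter GLUT3, had 11.7 and 15.1 CPM in panobinostat-treated cells, against 0 and 0 CPM in DMSO-treated cells, at least 229-fold higher, and SLC2A4, the insulin-responsive GLUT4, had 15.2 and 13.9 CPM with panobinostat and 0.339 and 0.149 CPM with DMSO (5.90 ± 0.30). Of 36 genes of the tricarboxylic acid cycle and pyruvate entry 26 fell and 8 rose (19 and 11 with library size alone). ME2, a mitochondrial malic enzyme, had 71.1 and 79.9 CPM in the panobinostat libraries and 538 and 545 CPM in the DMSO libraries (-2.84 ± 0.05). IDH1, the cytosolic isocitrate dehydrogenase, had 110.1 and 117 CPM in panobinostat-treated cells, against 30.7 and 32.2 CPM in DMSO-treated cells (1.85 ± 0.07). Fatty acid genes rose in 14 of 40 cases and fell in 21, 17 and 15 with library size alone. The sign of their median turned with the scale (0.03 with library size alone, -0.27 at the main scale). ACSS2, which makes acetyl-CoA from acetate in the nucleus and cytosol, had 30.4 and 32 CPM with panobinostat and 6.39 and 5.78 CPM with DMSO (2.36 ± 0.15). ACSS1, its mitochondrial counterpart, had 5.67 and 4.27 CPM in the panobinostat libraries and 39.3 and 38.8 CPM in the DMSO libraries (-2.99 ± 0.11). SLC25A20, the carnitine carrier, had 31.3 and 33.1 CPM in panobinostat-treated cells, against 277 and 274 CPM in DMSO-treated cells (-3.09 ± 0.05). Lysosome and autophagy genes rose in 26 of 50 cases and fell in 12. NEU1, the lysosomal sialidase, had 1217 and 1215 CPM with panobinostat and 74.2 and 76.9 CPM with DMSO (4.01 ± 0.05, adjusted p = 9.0e-91). PSAP, the precursor of saposins, had 1572 and 1615 CPM in the panobinostat libraries and 552 and 552 CPM in the DMSO libraries (1.53 ± 0.04). MCOLN1, a lysosomal calcium channel, had 123 and 121 CPM in panobinostat-treated cells, against 22.6 and 21.4 CPM in DMSO-treated cells (2.47 ± 0.08). ABC transporters rose in 21 of 31 cases and fell in 6. ABCA2 had 86.8 and 89.6 CPM with panobinostat and 0.466 and 0 CPM with DMSO (8.62 ± 0.24) and ABCA7 had 619.7 and 591 CPM in the panobinostat libraries and 72.6 and 73.9 CPM in the DMSO libraries (3.05 ± 0.11), both carriers of lipids.

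Signalling genes included both early response factors and receptors. Of 22 AP-1 and ATF factors 13 rose and 8 fell. FOS had 242 and 244 CPM in panobinostat-treated cells, against 12.8 and 14.6 CPM in DMSO-treated cells (4.14 ± 0.16) and FOSB had 64.7 and 57.3 CPM with panobinostat and 4.49 and 6.30 CPM with DMSO (3.49 ± 0.27). BATF, the AP-1 partner of IRF4 in lymphocytes, had 0.352 and 0.481 CPM in the panobinostat libraries and 9.53 and 8.98 CPM in the DMSO libraries (-4.43 ± 0.27). Among Kruppel-like factors 9 of 16 rose and 4 fell. KLF2, which keeps lymphocytes quiescent, had 784 and 836 CPM in panobinostat-treated cells, against 77.3 and 76.1 CPM in DMSO-treated cells (3.40 ± 0.05, adjusted p = 1.3e-81). KLF13 had 127 and 141 CPM with panobinostat and 659 and 664 CPM with DMSO (-2.30 ± 0.04). The list of dual-specificity phosphatases, Sprouty and SPRED genes divided, with 9 of 20 higher and 9 lower (11 and 8 with library size alone). DUSP1 had 130.3 and 130.3 CPM in the panobinostat libraries and 10.8 and 12.6 CPM in the DMSO libraries (3.47 ± 0.09). DUSP6, the phosphatase of ERK, had 15.8 and 15.8 CPM in panobinostat-treated cells, against 79.3 and 79.7 CPM in DMSO-treated cells (-2.33 ± 0.07). Of the receptor tyrosine kinases, 37 listed, 21 were tested, 13 rose and 6 fell. Low members can pass the filter through the treated libraries, so these counts are a description. The list summed to 485.4 and 482.7 CPM with panobinostat, against 3806.6 and 3847.3 CPM with DMSO. FGFR4 had 69.3 and 64.2 CPM with panobinostat and 4.23 and 4.32 CPM with DMSO (3.96 ± 0.13), while FGFR3, activated by translocation in part of myelomas and the most abundant receptor of this list here, had 255 and 263 CPM in the panobinostat libraries and 3519 and 3551 CPM in the DMSO libraries (-3.77 ± 0.04). In the Notch pathway 15 of 24 rose and 7 fell. NOTCH1 had 47.9 and 44.4 CPM in panobinostat-treated cells, against 15.2 and 14.7 CPM in DMSO-treated cells (1.62 ± 0.10), and its targets HES1 and NRARP had 15.3 and 15.1 CPM with panobinostat and 0 and 0.112 CPM with DMSO, a ratio of 255 (95% counting interval 87 to 1240), and 23.7 and 21 CPM in the panobinostat libraries and 1.74 and 1.60 CPM in the DMSO libraries (3.74 ± 0.22). Wnt genes rose in 13 of 35 cases and fell in 17: LEF1, a transcription factor of the pathway, had 5.60 and 7.40 CPM in panobinostat-treated cells, against 130.4 and 125 CPM in DMSO-treated cells (-4.28 ± 0.08). FZD2, a receptor, had 17.5 and 21.3 CPM with panobinostat and 2.20 and 1.30 CPM with DMSO (3.49 ± 0.19). In the TGF-beta and BMP list 15 of 37 rose and 17 fell, and the sign of the median turned with library size alone (15 higher and 12 lower, median 0.23 rather than -0.07). ID1 and ID3, inhibitors of basic helix-loop-helix factors and targets of BMP signals, had 243 and 248 CPM in the panobinostat libraries and 32.9 and 33.6 CPM in the DMSO libraries (2.89 ± 0.06) and 265 and 281 CPM in panobinostat-treated cells, against 29 and 27.8 CPM in DMSO-treated cells (3.27 ± 0.06). Clock genes rose in 11 of 22 cases and fell in 9, with PER1 at 125 and 121 CPM with panobinostat and 23.4 and 26.2 CPM with DMSO (2.31 ± 0.06), PER2 at 7.47 and 9.02 CPM in the panobinostat libraries and 39.9 and 40.5 CPM in the DMSO libraries (-2.27 ± 0.10), DBP at 14.7 and 16.5 CPM in panobinostat-treated cells, against 2.50 and 1.49 CPM in DMSO-treated cells (2.98 ± 0.19) and BHLHE40 at 4.11 and 4.90 CPM with panobinostat and 46.2 and 49 CPM with DMSO (-3.39 ± 0.11).

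Genes of the cilium rose almost without exception. The primary cilium is a sensory antenna built by intraflagellar transport, and lymphoid cells are usually without one. Of 49 ciliary transport genes, all of them above the filter, 45 rose, 3 fell and MKS1 was not called (median 1.41; 46 and 1 with library size alone). DYNC2H1, the motor that carries cargo back from the tip, had 43.6 and 41.7 CPM in panobinostat-treated cells, against 4.45 and 3.35 CPM in DMSO-treated cells (3.46 ± 0.14, adjusted p = 2.9e-43). WDR19, a subunit of the retrograde transport complex, had 107 and 106 CPM with panobinostat and 17.8 and 18.4 CPM with DMSO (2.55 ± 0.07). IFT22, of the anterograde one, had 58.4 and 62.1 CPM in the panobinostat libraries and 7.20 and 6.60 CPM in the DMSO libraries (3.13 ± 0.11). BBS12, a chaperonin-like protein needed to build the BBSome, had 19.6 and 19 CPM with panobinostat and 2.71 and 3.09 CPM with DMSO (2.72 ± 0.16). IFT88, whose promoter is shown above, had 39.3 and 33.6 CPM in the panobinostat libraries and 9.02 and 7.42 CPM in the DMSO libraries (2.15 ± 0.12). In each of these genes both panobinostat libraries exceeded both DMSO libraries. The sum over the list was 1822 and 1852 CPM in panobinostat-treated cells, against 764 and 758 CPM in DMSO-treated cells. GTTGCC was found in 19 of 41 promoters of this group (46.3%), beside 13.0% for tested protein-coding genes and 12.2% for all promoters in the table. With a match, 17 of 19 genes rose and the median was 1.07. Without one, 20 of 22 rose and the median was 1.32. The median was thus lower with the motif than without it.

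**Figure D4:**
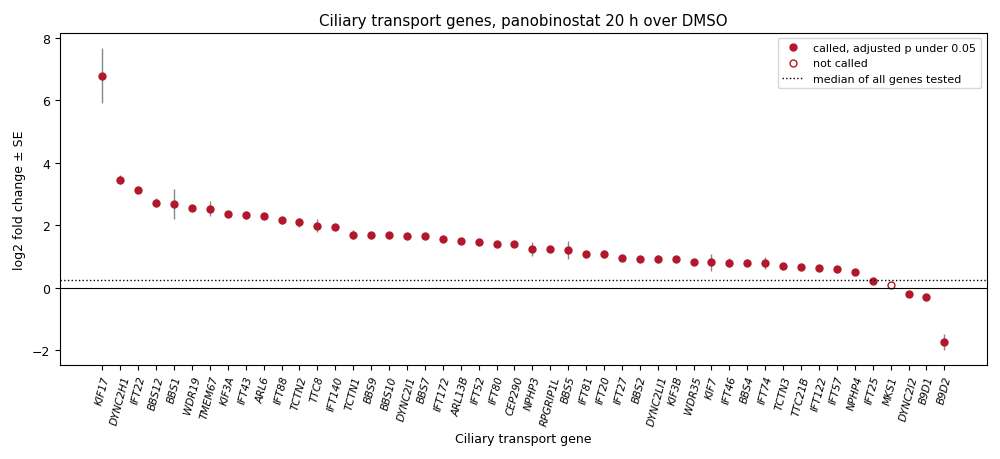
Log2 fold change of panobinostat 20 h over DMSO for 48 of the 49 ciliary transport genes, ordered by size, with bars of 1 SE and filled points for called genes. A dotted line marks the median of all genes at 0.25, and 44 of the genes plotted were called higher.

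In the cytoskeleton, of 18 tubulin genes 8 rose and 6 fell, and the sign of the median depended on the scale (-0.01 at the main scale, 0.29 with library size alone). TUBA1A had 236 and 237 CPM in panobinostat-treated cells, against 33.2 and 34.3 CPM in DMSO-treated cells (2.81 ± 0.07). TUBB2A had 58.9 and 61.5 CPM with panobinostat and 3.26 and 2.61 CPM with DMSO (4.36 ± 0.14) and TUBB4A had 42.4 and 41.3 CPM in the panobinostat libraries and 0.466 and 0.298 CPM in the DMSO libraries (6.77 ± 0.23), all of them prominent in neurons, and TUBB4B had 1797 and 1886 CPM in panobinostat-treated cells, against 600.4 and 610.0 CPM in DMSO-treated cells (1.61 ± 0.04). Of actin genes, 25 of 44 rose and 14 fell. GSN, gelsolin, an actin-severing protein known to rise with deacetylase inhibitors, had 68.9 and 67.4 CPM with panobinostat and 1.99 and 1.60 CPM with DMSO (5.25 ± 0.14, adjusted p = 6.2e-58). LIMA1, which crosslinks actin filaments, had 83.6 and 85.7 CPM in panobinostat-treated cells, against 6.01 and 6.26 CPM in DMSO-treated cells (3.78 ± 0.10). MSN, moesin, which ties actin to the membrane of lymphocytes, fell, at 132 and 139 CPM with panobinostat and 674 and 685 CPM with DMSO (-2.32 ± 0.04). Among intermediate filaments, VIM, the filament of lymphocytes and mesenchyme, had 106 and 107 CPM in the panobinostat libraries and 635 and 653 CPM in the DMSO libraries (-2.60 ± 0.04). The nuclear lamins divided: LMNA had 1575 and 1634 CPM in panobinostat-treated cells, against 615 and 596 CPM in DMSO-treated cells (1.41 ± 0.04), while LMNB1 had 57.6 and 57 CPM with panobinostat and 301 and 299 CPM with DMSO (-2.39 ± 0.05) and LMNB2 had 172 and 177 CPM in the panobinostat libraries and 376 and 378 CPM in the DMSO libraries (-1.11 ± 0.04).

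Matrix and junction genes that passed the filter rose more often than they fell. Of 44 collagen genes 30 passed the filter, 20 rose, 1 fell and 9 were not called (median 3.17, or 2.68 with genes silent in DMSO held at their bound). Such a list passes the filter partly through the treated libraries, so its counts carry no weight beyond description. COL1A1 had 34.8 and 33.5 CPM in panobinostat-treated cells, against 0 and 0 CPM in DMSO-treated cells, at least 573-fold higher. COL6A1 and COL6A2, neighbouring genes whose chains form 1 collagen, had 34.5 and 36.3 CPM with panobinostat and 0.212 and 0.224 CPM with DMSO (7.31 ± 0.28) and 28.7 and 29.7 CPM in the panobinostat libraries and 0.127 and 0.149 CPM in the DMSO libraries (7.67 ± 0.32). Of 41 laminin, basement membrane and matrix protease genes 24 were tested, 16 rose and 4 fell. AGRN, a heparan sulfate proteoglycan that clusters receptors at the muscle synapse, had 338 and 341 CPM in panobinostat-treated cells, against 13 and 13.5 CPM in DMSO-treated cells (4.68 ± 0.07, adjusted p = 2.9e-80). FN1, fibronectin, had 132 and 141 CPM with panobinostat and 10.5 and 9.17 CPM with DMSO (3.80 ± 0.08). Tight junction and desmosome genes rose in 16 of 26 cases and fell in 5, with CGN, cingulin, at 107 and 109 CPM in the panobinostat libraries and 5.72 and 4.10 CPM in the DMSO libraries (4.47 ± 0.13), JUP, plakoglobin, at 113 and 122 CPM in panobinostat-treated cells, against 10.2 and 11 CPM in DMSO-treated cells (3.46 ± 0.08), TJP3 at 29.2 and 31.3 CPM with panobinostat and 0.0423 and 0.0745 CPM with DMSO, a ratio of 511 (95% counting interval 175 to 2480), and PKP2, plakophilin, lower at 116 and 125 CPM in the panobinostat libraries and 549 and 558 CPM in the DMSO libraries (-2.20 ± 0.04). Of cadherins and protocadherins 16 of 27 rose and 7 fell. Of 42 genes listed in each case, 26 junction and 27 cadherin genes were tested, so the filter caveat covers them too. The junction list summed to 569.2 and 597.2 CPM with panobinostat, against 858.6 and 876.8 CPM with DMSO. The cadherin list summed to 419.3 and 411.8 CPM, against 505.9 and 528.5 CPM. Sums of the collagen and laminin lists were higher with panobinostat. CDH15, a cadherin of muscle, had 23.7 and 24.9 CPM in panobinostat-treated cells, against 0.254 and 0.0373 CPM in DMSO-treated cells (7.40 ± 0.33). PCDH10 had 18.8 and 20.0 CPM with panobinostat and 0.0847 and 0.261 CPM with DMSO (6.73 ± 0.30). CDH17, a cadherin of gut that OPM2 expressed, had 5.64 and 6.70 CPM in the panobinostat libraries and 67.1 and 63.5 CPM in the DMSO libraries (-3.39 ± 0.09).

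Genes known from neurons passed the filter partly through the treated libraries, as the collagens did, so the counts that follow are a description. Of 63 synaptic vesicle and exocytosis genes 49 were tested, 38 rose and 6 fell (median 2.75, or 2.45 with silent genes at their bound). UNC13A, which primes vesicles for release, had 60.8 and 56.2 CPM in panobinostat-treated cells, against 0 and 0.149 CPM in DMSO-treated cells (9.44 ± 0.31). SLC17A7, the vesicular glutamate transporter VGLUT1, had 59.2 and 66.5 CPM with panobinostat and 0.127 and 0.298 CPM with DMSO (8.14 ± 0.22). NRXN2, a presynaptic adhesion protein, had 28.9 and 28.5 CPM in the panobinostat libraries and 0 and 0.149 CPM in the DMSO libraries (8.41 ± 0.36). Axon guidance genes rose in 38 of 55 cases and fell in 10. SEMA6C, a transmembrane semaphorin, had 74 and 74.5 CPM in panobinostat-treated cells, against 1.74 and 1.49 CPM in DMSO-treated cells (5.53 ± 0.14). SEMA3F, a secreted one, had 19.1 and 19.4 CPM with panobinostat and 0.127 and 0.149 CPM with DMSO (7.07 ± 0.39). SEMA6B had 16.6 and 16.1 CPM in the panobinostat libraries and 0 and 0 CPM in the DMSO libraries, at least 274-fold higher. Sodium and calcium channels rose in 22 of 30 cases and fell in 5, and 43 were listed. SCN4A, the sodium channel of skeletal muscle, had 27.7 and 27.9 CPM in panobinostat-treated cells, against 1.02 and 1.30 CPM in DMSO-treated cells (4.57 ± 0.21). CACNA1G, a T-type calcium channel, had 12.5 and 13.1 CPM with panobinostat and 0.0847 and 0 CPM with DMSO, a ratio of 324 (95% counting interval 89.4 to 2680). Potassium channels rose in 25 of 45 cases and fell in 9, though their list summed to 240.7 and 239.2 CPM with panobinostat, against 502.2 and 511.1 CPM with DMSO. Among those that fell were channels the untreated line read. KCNA3, a channel of lymphocytes, had 2.39 and 2.25 CPM in the panobinostat libraries and 29.9 and 28.4 CPM in the DMSO libraries (-3.65 ± 0.14). KCNQ5 had 2.03 and 2.74 CPM in panobinostat-treated cells, against 50.7 and 52.7 CPM in DMSO-treated cells (-4.41 ± 0.11). Likewise among 37 tested receptors for glutamate, GABA, glycine and acetylcholine 21 rose and 5 fell, and the kainate receptor subunit GRIK4, at 3.87 and 4.06 CPM with panobinostat and 151 and 148 CPM with DMSO, fell by 5.23 on the log2 scale. GRIK2, another kainate receptor subunit, had 8.10 and 8.33 CPM in the panobinostat libraries and 0.677 and 1.04 CPM in the DMSO libraries (3.23 ± 0.28). The receptor list summed to 169.5 and 165.4 CPM with panobinostat, against 276.7 and 271.9 CPM with DMSO. Sums of the synaptic, axon guidance and sodium and calcium channel lists were higher with panobinostat.

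Developmental and germ cell genes passed the filter in part. Of 39 homeobox cluster genes 9 were tested, 6 rose and none fell, and HOXA3, HOXA6 and HOXB7 were not called. SOX, GATA, PAX and T-box factors rose in 11 of 27 cases and fell in 8, with GATA3 at 6.65 and 7.70 CPM with panobinostat and 2.12 and 2.05 CPM with DMSO (1.79 ± 0.24) and TBX2 at 5.36 and 9.05 CPM in the panobinostat libraries and 65 and 65.4 CPM in the DMSO libraries (-3.14 ± 0.10). Cancer-testis antigens, which are read in germ cells and in many tumours, were lower in 12 of 25 tested genes and higher in 6. MAGEC1 had 54.8 and 56.9 CPM in panobinostat-treated cells, against 201 and 192 CPM in DMSO-treated cells (-1.81 ± 0.05) and CTAG2 had 69.3 and 70.2 CPM with panobinostat and 216 and 209.8 CPM with DMSO (-1.61 ± 0.05), both known in myeloma, while SPANXN3 had 6.57 and 9.26 CPM in the panobinostat libraries and 0 and 0 CPM in the DMSO libraries, at least 136-fold higher.

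Of 3352 long noncoding RNAs tested, 1397 (41.7%) were higher and 580 (17.3%) lower, with a median of 0.80, and protein-coding genes were higher in 42.8% and lower in 40.2% of cases, with a median of 0.10. The classes were not matched on level, and low genes pass the filter through the libraries where they are high. MIR7-3HG, the host of a microRNA gene, had 23.4 and 21 CPM in panobinostat-treated cells, against 0 and 0 CPM in DMSO-treated cells, at least 371-fold higher. HULC, a noncoding RNA first described in liver cancer, had 15 and 13 CPM with panobinostat and 0 and 0 CPM with DMSO, at least 234-fold higher. FAM30A, a noncoding RNA of B-lineage cells, had 2.78 and 2.07 CPM in the panobinostat libraries and 620.1 and 618 CPM in the DMSO libraries (-8.02 ± 0.07, adjusted p = 2.9e-102). SILC1 had 2.43 and 2.04 CPM in panobinostat-treated cells, against 155 and 149 CPM in DMSO-treated cells (-6.10 ± 0.09). The median span was 30.6 kb for protein-coding genes at least 2-fold higher, 36.3 kb for those at least 2-fold lower and 33.2 kb for the others. At a mean of 10 CPM or more over all libraries, falls of at least 2-fold were called in 26.6%, 24.3%, 22.7%, 31.3% and 32.8% of protein-coding genes from the shortest to the longest of 5 length classes, with bounds at 10, 30, 100 and 300 kb.

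Against the same inhibitor at 5 h, 5754 genes were higher at 20 h (27.5%) and 6049 lower (28.9%). This comparison and the one with DMSO share the 20 h libraries. With library size alone 60.7% of the calls were higher at 20 h, rather than 48.8%. Among the deepest falls, which the rule of size picked, POU2AF1, the B-cell coactivator OCA-B, had 2.54 and 2.25 CPM at 20 h, against 204 and 188 CPM at 5 h (log2 fold change -6.36 ± 0.08). SLC38A5, a glutamine transporter, had 4.93 and 5.23 CPM at 20 h, against 186 and 192 CPM at 5 h (-5.21 ± 0.07). NPAS3, a neuronal transcription factor, had 0.157 and 0.331 CPM at 20 h, against 11.8 and 11.3 CPM at 5 h (-5.48 ± 0.26). Among the largest rises, picked in the same way, TENM1, a teneurin adhesion protein of neurons, had 51.9 and 55 CPM at 20 h, against 0.171 and 0.536 CPM at 5 h (7.11 ± 0.25). NLRP2, a regulator of inflammasomes and oocytes, had 16 and 13.8 CPM at 20 h, against 0.114 and 0.247 CPM at 5 h (6.25 ± 0.37). NRXN2 had 28.9 and 28.5 CPM at 20 h, against 0.456 and 0.165 CPM at 5 h (6.61 ± 0.31). Of the 49 ciliary transport genes 35 were higher at 20 h than at 5 h and 6 lower. Of 53 splicing factors 11 were higher and 35 lower, and of 38 mitochondrial import genes 1 was higher and 27 lower. G1 genes were lower at 20 h in 22 of 28 cases and higher in 1. Histone genes were higher in 8 of 23 and lower in 6, with H1-4 at 9.39 and 8.93 CPM at 20 h, against 2.56 and 2.27 CPM at 5 h (1.93 ± 0.24). BMI1 was among the genes that turned back, with 164 and 167 CPM at 20 h, against 124 and 129.8 CPM at 5 h (0.38 ± 0.04), while still below DMSO. NXF1 was lower at 20 h than at 5 h, at 377 and 364 CPM at 20 h, against 565 and 558 CPM at 5 h (-0.60 ± 0.04), while still above DMSO. DUSP2, a phosphatase of activated lymphocytes, had 207 and 219 CPM at 20 h, against 17.5 and 18.4 CPM at 5 h (3.56 ± 0.07), above DMSO at 20 h and below it at 5 h.

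Romidepsin at the same 10 nM and the same 20 h offers the closest comparison between inhibitors. Panobinostat, a hydroxamic acid, and romidepsin, a cyclic depsipeptide whose reduced thiol binds zinc, differ in scaffold and in zinc-binding group. Panobinostat-treated cells had 3835 genes higher (18.3%) and 4907 lower (23.4%) than romidepsin-treated cells, with a median over all genes of -0.001. With library size alone 51.5% of these calls were higher, rather than 43.9%. Equal concentrations are not equal potency, so doses are matched here in nM only. Of the 12 plasma cell markers 11 were lower with panobinostat and none higher, with a median of -1.94. P2RY6, a receptor for extracellular UDP, had 3.09 and 4.03 CPM with panobinostat, against 178 and 171 CPM with romidepsin (-5.59 ± 0.08, adjusted p = 3.3e-79). RGS1, a brake on chemokine receptor signals, had 4.42 and 3.13 CPM with panobinostat, against 84.8 and 94.5 CPM with romidepsin (-4.59 ± 0.13). CCL3, a chemokine of myeloma cells, had 0.900 and 0.902 CPM with panobinostat, against 10.8 and 15.3 CPM with romidepsin (-3.85 ± 0.21). MACROD2, a hydrolase of ADP-ribose, had 11.5 and 12.4 CPM with panobinostat, against 185 and 197 CPM with romidepsin (-4.00 ± 0.06). MUC13, a mucin, had 3.80 and 2.68 CPM with panobinostat, against 48.5 and 48.3 CPM with romidepsin (-3.93 ± 0.09). GPR171 had 0.0783 and 0.120 CPM with panobinostat, against 7.05 and 6.60 CPM with romidepsin (-5.99 ± 0.33). The rule picked these genes by size among those called lower with panobinostat whose libraries did not overlap. MHC class II genes were lower in 11 of 17 cases and higher in none, with HLA-DRA at 29 and 27.8 CPM with panobinostat, against 114 and 108 CPM with romidepsin (-1.97 ± 0.08). The TGF-beta and BMP list was lower in 24 of 37 cases and higher in 1, with ID1 at 243 and 248 CPM with panobinostat, against 585 and 594 CPM with romidepsin (-1.26 ± 0.05).

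On the other side, genes higher with panobinostat than with romidepsin included BAIAP3, a protein of vesicle release, at 94.2 and 83.6 CPM with panobinostat, against 14.6 and 12.8 CPM with romidepsin (2.70 ± 0.11), DNAH3, an axonemal dynein, at 35.5 and 37.8 CPM with panobinostat, against 5.36 and 4.93 CPM with romidepsin (2.83 ± 0.18), RPL3L at 60.9 and 61.4 CPM with panobinostat, against 10.5 and 9.83 CPM with romidepsin (2.59 ± 0.15), CRISPLD2 at 20.1 and 20.2 CPM with panobinostat, against 3.17 and 2.37 CPM with romidepsin (2.87 ± 0.27) and SLC22A31 at 12.7 and 12.2 CPM with panobinostat, against 2.03 and 2.41 CPM with romidepsin (2.49 ± 0.29). These 5 lie on chromosome 16. NRARP had 23.7 and 21 CPM with panobinostat, against 3.55 and 3.56 CPM with romidepsin (2.65 ± 0.19) and CCR4, a chemokine receptor of T cells, had 6.61 and 7.19 CPM with panobinostat, against 0.844 and 0.556 CPM with romidepsin (3.30 ± 0.42). Aminoacyl-tRNA synthetase genes were higher with panobinostat in 24 of 39 cases and lower in 4 (median 0.27), and ciliary transport genes in 21 of 49 and lower in 2 (median 0.27). GSN was not called between the inhibitors, with a difference of 0.04 ± 0.09 and an interval of 1.96 SE running -0.14 to 0.21, and nor was SEC61A1, at 0.04 ± 0.04 with an interval of -0.03 to 0.12.

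The difference between the inhibitors varied with the chromosome. Of all tested protein-coding genes 23.3% were higher with panobinostat than with romidepsin and 31.3% lower. Among protein-coding genes, 39.4% of those on chromosome 16 were higher with panobinostat than with romidepsin and 17.7% lower, and on chromosome 19 the shares were 35.8% and 12.9%. On chromosome 4 the shares were 11.6% and 44.1%, on chromosome 6 13.0% and 43.9%, and on chromosome X 11% and 44.7%. Base composition moved with it. Across 8647 protein-coding genes at 10 CPM or more, split into 5 equal classes by the GC content of their transcripts, the median log2 difference between panobinostat and romidepsin was -0.21, -0.16, -0.09, -0.001 and 0.12 from the lowest to the highest class. The share higher with panobinostat was 13.8%, 21.2%, 26.8%, 34.0% and 45.2%, and the share lower was 53.9%, 49.6%, 43.7%, 36.3% and 28.2%. Between the 2 panobinostat replicates the same classes differed by -0.05 to -0.02, and between the 2 romidepsin replicates by -0.01 to 0.01. Against DMSO the medians of the classes were -0.27, -0.29, -0.34, -0.37 and -0.17, with no steady order. Chromosome 19 had the highest median GC content (59.1%) and a median difference of 0.15, and chromosome 13 the lowest (40.9%) with -0.21. Chromosome X and chromosome 6, both at 46.1%, had medians of -0.31 and -0.26. The part of base composition in the chromosome pattern was not tested.

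**Figure D5:**
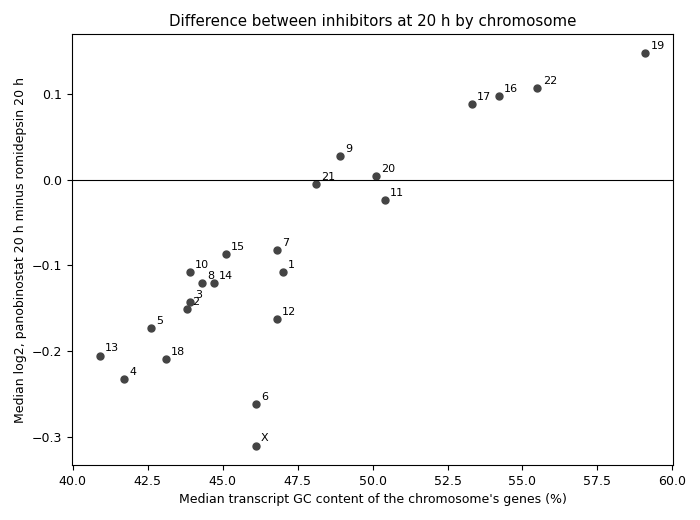
Median log2 difference of panobinostat 20 h minus romidepsin 20 h (y axis) against the median GC content of transcripts in percent (x axis), 1 point for each chromosome, over protein-coding genes at 10 CPM or more. Chromosomes 19, 16, 17 and 22 lie at the upper right, and chromosomes X and 6 lie lowest, under others of like GC content.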

How the data were processed

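The deposited values are whole-number read counts per gene, 1 column for each of 20 libraries, with no normalization. Per the labels' protocols, poly(A) RNA gave strand-specific libraries read as 100-base pairs on an Illumina HiSeq, and per the submitters' processing notes the tools were HISAT2, SAMtools and featureCounts on GRCh38. The sources used here give no versions, annotation release or strand setting, so reads of a gene and an overlapping antisense gene may not be separated. Symbols came from a table of Ensembl identifiers (61481 of 78932 identifiers matched, 42179 with a symbol) and gene types from GENCODE 29.

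Counts from all 10 groups entered 1 fit in edgeR 4.0.16 under R 4.3.3, with a term for each group, trimmed mean of M values scaling and a minimum count of 10, so the spread was shared. The robust quasi-likelihood test gave p-values, adjusted by Benjamini-Hochberg over 20957 genes, and SE is the log2 fold change over the root of its F statistic. The biological coefficient of variation was 0.0419. The steps were run on simulated data with known changes in few genes, balanced in direction and not low in counts. That setting cannot test the scaling under a shift as broad as the one here, nor the calls of genes with few counts. Bounds use a floor of 3 counts over a group, 0.0595 CPM for DMSO, and intervals and floors cover counting error only. Chi-square per gene between replicates was 2.91 with panobinostat and 2.60 with DMSO, so replicates differed beyond sampling. DESeq2 1.42.0, other scalings, filters, a replicate block and left-out replicates were the alternatives.

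The members and lists were chosen with earlier results of these data known. Named genes follow a rule of size: a fixed panel, the 10 largest rises, falls, gains and losses in CPM among protein-coding genes at 5 CPM or more in a group, the 5 largest among long noncoding RNAs, the 8 largest against romidepsin and against 5 h, and in each list the 5 largest changes with uncalled members where at most 4. IFT88, LONP1, CCND1, CCNE2, CCNH, E2F4 and TFDP2 fall outside it and were named after their values were seen. Outside the panel and the lists, a gene also had to be called, and the libraries of the groups compared could not overlap. XIST and chromosome Y genes were left out. Promoters came from RefSeq. Some genes that the rule names are not reported here.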

Additional observations from a re-analysis of the deposited data

Results flagged for a closer look

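Among 275 genes named here, 2 were called in opposite directions against DMSO at 5 h and 20 h of panobinostat, with the difference between the times itself called by edgeR's quasi-likelihood test. DUSP2 was at 3.02 ± 0.07 (log2 fold change ± SE) at 20 h and at -0.54 ± 0.08 at 5 h, each over DMSO. The difference, 20 h minus 5 h, was 3.56 ± 0.07 (adjusted p = 2.0e-67), and both libraries at 20 h lay above those at 5 h. RGS1 was at -0.41 ± 0.16 at 20 h and at 0.66 ± 0.15 at 5 h over DMSO, a difference of -1.06 ± 0.16 (adjusted p = 3.7e-09). The fall of RGS1 at 20 h was no longer called under library size alone, DESeq2, a minimum count of 50, and without panobinostat replicate 2 or DMSO replicate 2 (adjusted p between 0.0608 and 0.569).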

How the results depend on the processing

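Counts of called genes stayed within 1.5 times their main value under the alternatives run, apart from genes at least 2-fold higher than DMSO, which numbered 3865 with a minimum count of 50, where 14013 genes remained to be tested. With 1 replicate left out, that number ran between 5394 and 5711, all genes higher than DMSO between 7325 and 7699, and genes lower between 6670 and 6777, the lone library being assumed to vary like the other groups. Against romidepsin these ranges were 2766 to 3135 higher and 4164 to 4534 lower, and against panobinostat at 5 h 4262 to 4750 higher and 5614 to 5898 lower. The fit with a replicate block gave 8462 genes higher and 6745 lower than DMSO, but same-numbered samples did not deviate together (correlations between -0.147 and 0.109 over 45 pairs of groups), so the numbers are names. Of 3005 pairs of a named gene and an alternative, 2940 kept their direction and call, 54 gained a call, 5 lost one, all RGS1, and 6 turned their direction. Those 6 concern genes not called at the main setting: under library size alone BRD2 came to 0.28, CCNH to 0.27, ERN1 to 0.22, NAA10 to 0.21 and TIMM50 to 0.23, and with a minimum count of 50 BRD2 came to 0.10. The scale itself shifts every gene alike, and with 2 libraries in a group the spread of low genes is known mainly through the other groups.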

Other observations

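Of the tested protein-coding genes with 0 counts in both DMSO libraries, 369 had a promoter among the RefSeq sequences, and the shares of these that held a motif are given as a description with no test. GGGCGG was found on either strand in 50.1% of these, beside 67.9% of the 11031 promoters of all tested protein-coding genes. TATAAA stood in 13% of them, beside 6.29%, and TGANTCA, the letters of an AP-1 site, in 10.0%, beside 4.59%. These genes passed the filter through other groups.

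Of the 275 genes named here, CCL3, CD38, P2RY6 and RGS1 were called in opposite directions against DMSO by panobinostat and romidepsin at 20 h. Genes outside these 275 were not searched. The rule of size had picked CCL3, P2RY6 and RGS1 for their low level against romidepsin. For RGS1 the fall with panobinostat was called at an adjusted p of 0.0209 by edgeR and lost its call under 5 alternatives (adjusted p between 0.0608 and 0.569). CD38 had a log2 fold change of -1.59 ± 0.16 with panobinostat and 0.61 ± 0.14 with romidepsin, both over DMSO, and the direct difference between the inhibitors was -2.20 ± 0.15. P2RY6 was at -5.04 ± 0.08 with panobinostat and 0.55 ± 0.05 with romidepsin, and CCL3 at -2.95 ± 0.22 with panobinostat and 0.90 ± 0.15 with romidepsin.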
